A study of Rattus norvegicus with 9 samples.

Results

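NMDA receptors are glutamate-gated calcium channels of the excitatory synapse, and the genes described here encode 6 of their subunits. The genes Grin1, Grin2a, Grin2b, Grin2c, Grin2d and Grin3a were taken by exact match of the symbol, which gave 6 of the 22050 genes in the deposited tables. RNA sequencing had been run on cultures from the cortex of Sprague Dawley rat embryos at day 19, labelled primary cortical neurons, in 3 groups of 3 libraries. The first group was deprived of oxygen and glucose (OGD, which models stroke in culture) and also kept in normal oxygen. Under these conditions, per its label, it received Wnt3a at 100 ng/ml plus Rspondin 1 at 50 ng/ml for 24 h, ligands that together activate Wnt/beta-catenin signalling. The second group had OGD alone, with 4.5 h at 1% oxygen in medium without glucose and pyruvate and then regular medium in normal oxygen, and the last group was untreated control. Hours and oxygen are stated for OGD alone only, the tables call that group vehicle although its labels name none, and neither the harvest time nor the days in culture are given in the sources used here. No label ties the replicates to different cultures or animals, and the spread behind each p-value may therefore be technical.

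An NMDA receptor is an assembly of obligatory GluN1 subunits, encoded by Grin1, which bind glycine or D-serine, with GluN2 subunits, which bind glutamate and set how long the channel stays open, or with GluN3 subunits, which lower its calcium entry. GluN2B and GluN2D are known as the early GluN2 subunits of the brain, GluN2A gains on GluN2B as cortical synapses mature, and GluN2C is best known from cerebellar granule cells and is also found in astrocytes of the rodent forebrain. Calcium entry through these receptors is a classical route of neuronal death after loss of blood supply.

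Totals ran from 14285914 to 25048521 counts per library. Neuron markers took 0.176% to 0.24% of counts in OGD, against 0.917% to 0.951% in controls, while astrocyte markers took 1.65% to 1.75% in OGD and 0.514% to 0.557% in controls. Of all tested genes, OGD against control called 36.8% lower and 36.3% higher at an adjusted p of 0.05. All 13 neuron markers fell after OGD (median log2 change -2.44), all 9 measured markers of excitatory neurons fell (-2.36), and of 10 markers of inhibitory neurons 9 fell (-2.37). All 10 astrocyte markers rose (1.35), as did all 7 tested microglia markers (2.29), 7 of 8 neural progenitor markers (1.64), 6 of 10 markers of the oligodendrocyte lineage (0.87) and 5 of 7 tested markers of vessels and fibroblasts (1.78). Against their lists, the progenitor gene Hes5 fell (-1.80 ± 0.20), as did the oligodendrocyte lineage genes Mog (-0.69 ± 0.20), Pdgfra (-0.47 ± 0.08) and Cspg4 (-0.64 ± 0.09) and the fibroblast gene Dcn (-2.08 ± 0.58). No marker was at 0 in every library. The controls therefore held glial transcripts too, with the astrocyte filament gene Gfap at 903 ± 62.2 FPKM beside 1210 ± 113 FPKM for the neuronal tubulin gene Tubb3 (mean ± SD, n = 3). The control libraries stood far from the other 6 on the first principal component (84.1% of the variance), and OGD replicate 1 stood apart on the second (4.63%). In bulk RNA, fewer neurons and less of a transcript per neuron cannot be told apart.

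In the OGD libraries 5 of the 6 subunit genes were lower than in control and Grin2c was higher. The falls ran from 5.59-fold for Grin2b to 13.2-fold for Grin2a, and Grin2c rose 2.43-fold. All 6 passed an adjusted p of 0.05 (edgeR quasi-likelihood fit, Benjamini-Hochberg over 13693 tested genes). That comparison called 73.1% of all genes tested, 36.8% lower and 36.3% higher, so a call alone does not set a subunit apart. Libraries of OGD and control did not overlap for any of the 6, nor for 75.1% of tested genes (37% higher and 38.1% lower in OGD). A fall by a log2 of over 2, seen for all 5 that fell, was called for 9.25% of the genes tested. Adding Wnt3a plus Rspondin 1 under OGD moved none of the 6 past the threshold. Every member had at least 16 reads in every library, and all 6 passed the filter on low counts.

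No sequence before the gene start was available for Grin2a and Grin2b, which also fell. The 250 bases before the start of Grin2c are shown with those of Grin1, Grin2d and Grin3a, which moved the other way. They come from RefSeq on the rat build GRCr8, all on the minus strand, at chr10:101005139-101005388 for Grin2c, chr3:28528755-28529004 for Grin1, chr1:105481237-105481486 for Grin2d and chr5:69001559-69001808 for Grin3a, and the table's start may be one of several. They are written 5′ to 3′ with every CG dinucleotide in capitals.
Grin2c: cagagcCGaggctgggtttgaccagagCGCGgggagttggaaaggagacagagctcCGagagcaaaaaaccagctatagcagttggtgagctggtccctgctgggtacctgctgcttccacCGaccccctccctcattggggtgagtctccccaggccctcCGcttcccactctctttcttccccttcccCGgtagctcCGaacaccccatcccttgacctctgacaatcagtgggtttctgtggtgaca
Grin1: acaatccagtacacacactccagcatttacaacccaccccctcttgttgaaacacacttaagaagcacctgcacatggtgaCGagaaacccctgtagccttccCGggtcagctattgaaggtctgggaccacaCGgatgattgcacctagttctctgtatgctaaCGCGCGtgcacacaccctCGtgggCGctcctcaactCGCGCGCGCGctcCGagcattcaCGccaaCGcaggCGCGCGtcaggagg
Grin2d: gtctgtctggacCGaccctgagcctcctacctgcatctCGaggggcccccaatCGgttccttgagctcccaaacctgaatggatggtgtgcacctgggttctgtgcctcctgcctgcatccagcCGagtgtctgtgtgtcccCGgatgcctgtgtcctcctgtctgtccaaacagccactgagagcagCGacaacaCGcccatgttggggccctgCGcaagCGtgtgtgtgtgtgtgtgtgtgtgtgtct
Grin3a: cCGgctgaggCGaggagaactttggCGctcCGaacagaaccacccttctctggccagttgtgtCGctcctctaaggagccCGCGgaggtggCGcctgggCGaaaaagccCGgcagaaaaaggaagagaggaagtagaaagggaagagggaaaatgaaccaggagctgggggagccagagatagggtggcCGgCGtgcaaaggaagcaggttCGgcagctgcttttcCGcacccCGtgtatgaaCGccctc
The Grin2c stretch held 8 CG dinucleotides and the Grin2d stretch 9, against 19 for Grin1 and 16 for Grin3a, with a median of 5 over 33469 windows of this length. The letters of 7 motifs were searched on both strands. The CCAAT box (CCAAT) lay 115 bases before the start of Grin2c and 202 before that of Grin2d, and 34% of all windows held it. An EGR-type core (GCGNGGG) lay 224 bases before the start of Grin2c, and 18.1% of windows held it. The other 5 were the GC box core (GGGCGG, in 30.5% of windows), the TATA box (TATAAA, 12.9%), the cyclic AMP response element core (TGACGT, 6.95%), the AP-1 site (TGANTCA, 6.34%) and the right-hand part of the REST element (GGACAGC, 5.3%), and these letters were in none of the 4 windows. The motifs GGGCGG and GCGNGGG can overlap.

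Grin1, the subunit without which no functional receptor forms, was the most abundant member in every group by mean FPKM, a level scaled to gene length and library depth. It had 13.66, 10.66 and 14.21 FPKM in OGD replicates 1 to 3, against 85.77, 82.68 and 76.32 FPKM in control replicates 1 to 3. The groups did not overlap, and the highest OGD library lay far below the lowest control. The log2 change was -2.76 ± 0.12 (change ± SE, adjusted p = 1.06e-09), which is 6.77-fold lower in OGD.

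Grin2b, the GluN2 subunit that leads in the young cortex, had 3.11, 2.62 and 4.83 FPKM in OGD and 17.41, 20.18 and 17.63 FPKM in control. Again all OGD libraries were below all controls, with OGD replicate 3 the highest of its group. The log2 change was -2.48 ± 0.23 (adjusted p = 2.01e-06), the smallest of the 5 falls.

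Grin2a, the subunit linked to synapse maturation, had 0.26, 0.35 and 0.54 FPKM in OGD and 4.58, 4.86 and 4.86 FPKM in control. These OGD values rest on 16, 33 and 36 reads. The log2 change was -3.72 ± 0.25 (adjusted p = 2.14e-08), the largest fall of the family, and the control libraries were tightly grouped.

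Grin2d, an early subunit kept in adult interneurons and brainstem, had 1.58, 1.15 and 1.36 FPKM in OGD and 11.98, 10.55 and 9.79 FPKM in control. The log2 change was -3.07 ± 0.15 (adjusted p = 1.89e-09), with no overlap between the groups. The length that count and FPKM imply for Grin2d differed by up to 9.8% from its median over libraries, so its FPKM and count values are not in strict proportion; for the other members this was at most 2.01%.

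Grin3a, whose subunit lowers calcium permeability and which is known from the young brain, had 0.74, 0.88 and 0.87 FPKM in OGD and 9.03, 8.58 and 8.38 FPKM in control. It had the smallest adjusted p of the 6 (5.08e-10), with a log2 change of -3.46 ± 0.13 or 11-fold lower. OGD counts were 34, 63 and 44 reads, against 584, 431 and 675 in control.

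Grin2c went the other way. It had 11.98, 7.79 and 7.34 FPKM in OGD, against 3.89, 3.84 and 2.83 FPKM in control, so the lowest OGD library lay above the highest control. The log2 change was 1.28 ± 0.23 (adjusted p = 0.000438). Replicate 1 was the highest OGD library, the one that stood apart on the second component, and without it the log2 change was 1.02 ± 0.20 (adjusted p = 0.00148). Without that library the other 5 members kept changes of -2.42 to -3.55, and all 6 calls held.

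**Figure D1:**
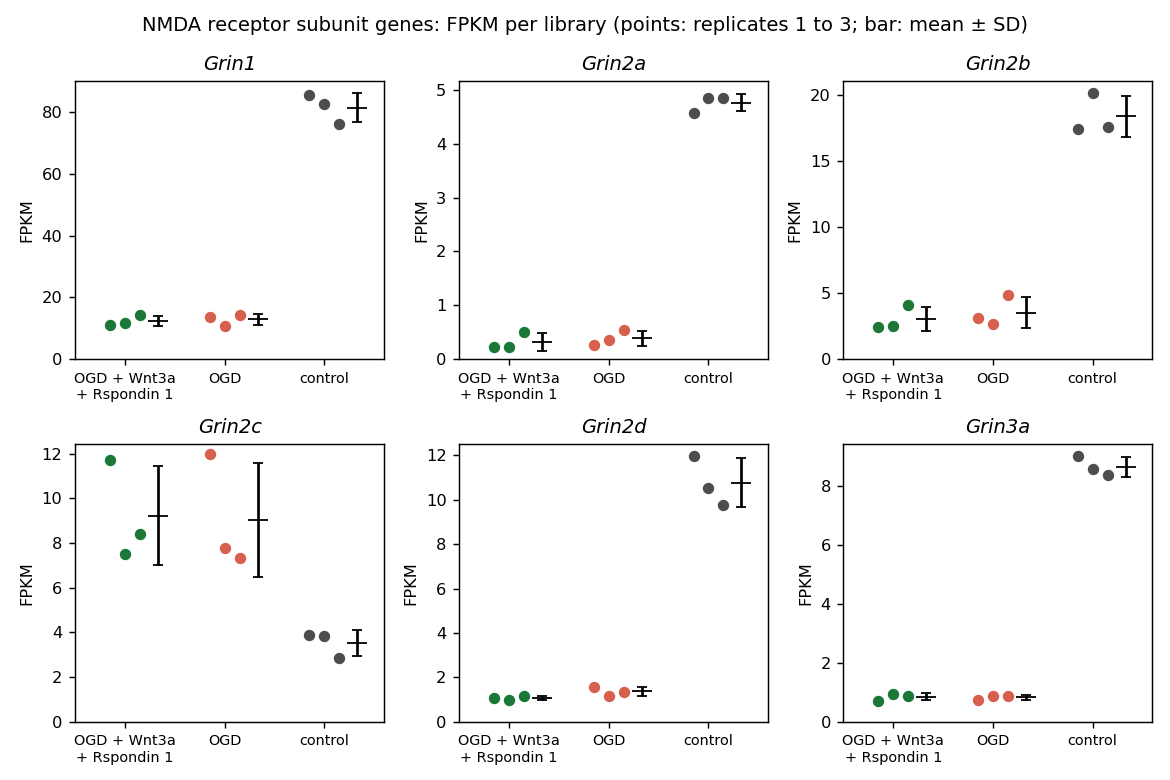
FPKM of each subunit gene in the 3 groups (points are libraries, replicates 1 to 3 from left to right; the bar is the mean ± SD, n = 3), with OGD plus Wnt3a plus Rspondin 1 left of OGD and control. Grin1, Grin2a, Grin2b, Grin2d and Grin3a were lower in all 6 OGD libraries than in any control, and Grin2c was higher, at 7.34 to 11.98 FPKM in the OGD libraries against 2.83 to 3.89 FPKM in control.

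The authors' deposited table gives log2 fold changes of -2.67 for Grin1, -3.64 for Grin2a, -2.39 for Grin2b, -2.98 for Grin2d, -3.38 for Grin3a and 1.36 for Grin2c, each with an FDR of at most 8.21e-09 by the authors' own test. No source used here says if strand was used in counting, and reads of overlapping genes cannot then be told apart. In the RefSeq annotation of GRCr8, protein-coding genes overlap Grin1 (Lrrc26), Grin2d (Grwd1) and Grin3a (Ppp3r2). Lrrc26 had at most 10 reads in a library and Ppp3r2 had 0. Grwd1, a ribosome assembly gene, averaged 286 reads in OGD and 438 in control, and fell by 0.47 ± 0.13 on the log2 scale (adjusted p = 0.00421).

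The order of the subunits by level also differed between the groups. In OGD the order by mean FPKM was Grin1 (12.8 ± 1.91), Grin2c (9.04 ± 2.56), Grin2b (3.52 ± 1.16), Grin2d (1.36 ± 0.215), Grin3a (0.83 ± 0.0781) and Grin2a (0.383 ± 0.143; SD, n = 3). In control it was Grin1 (81.6 ± 4.82), Grin2b (18.4 ± 1.54), Grin2d (10.8 ± 1.11), Grin3a (8.66 ± 0.333), Grin2a (4.77 ± 0.162) and Grin2c (3.52 ± 0.598). Grin2c thus stood in the second place in OGD and in the last in control. Among neighbours in these orders, only the libraries of Grin1 and Grin2c in OGD overlapped.

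Shares within a library do not depend on how libraries are scaled. Grin2c made up 70.8%, 65.4% and 52.2% of the summed FPKM of Grin2a to Grin2d in OGD, against 10.3%, 9.74% and 8.06% in control. The means were 62.8% ± 9.57 in OGD and 9.36% ± 1.16 in control (SD, n = 3), a difference of 53.4 percentage points. The share of Grin2b was 24.9% ± 8.37 in OGD and 49.1% ± 2.76 in control, that of Grin2d 9.55% ± 0.19 and 28.8% ± 2.56, and that of Grin2a 2.77% ± 1.16 and 12.8% ± 0.948, in the same order of groups. None of these 4 shares overlapped between the groups. The 4 make up a whole in each library, so a larger share of Grin2c lowers the rest, and they are not 4 separate results. With 3 libraries against 3 an exact permutation test cannot go below p = 0.1 (two-sided), and each of the 4 gave that value. These are shares of transcripts in whole cultures, and say nothing of which subunits share a cell.

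**Figure D2:**
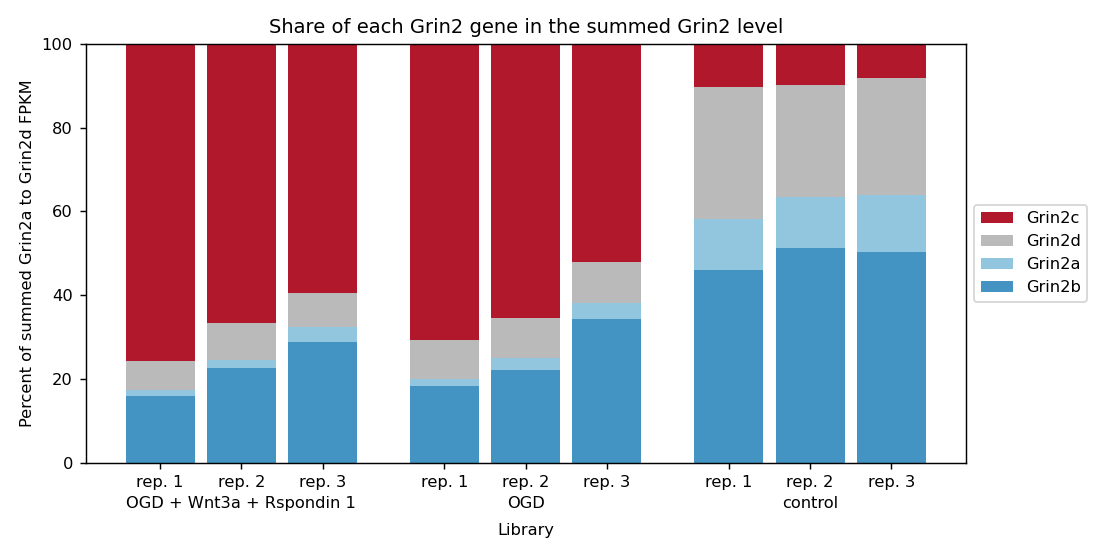
Stacked bars give each Grin2 gene's percent of the summed Grin2a to Grin2d FPKM in every library, by group. Grin2c takes 59.5% to 75.8% in OGD plus Wnt3a plus Rspondin 1 and 52.2% to 70.8% in OGD, against 8.06% to 10.3% in control, where Grin2b takes the largest share.

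The balance of Grin2a and Grin2b, which shifts towards Grin2a as cortex matures, was lower in OGD. The log2 ratio of Grin2a to Grin2b FPKM was -3.58, -2.90 and -3.16 in OGD, against -1.93, -2.05 and -1.86 in control, a difference of -1.27 (exact permutation p = 0.1, the smallest possible). Relative to Grin1, the log2 ratio changed by -1.02 for Grin2a, -0.71 for Grin3a and -0.31 for Grin2d, each without overlap of libraries (p = 0.1 each, exact permutation test). Grin2b over Grin1 changed by 0.24, and the libraries overlapped (exact permutation p = 0.4). Grin2c over Grin1 changed by 4.02, with ratios of -0.19, -0.45 and -0.95 in OGD and -4.46, -4.43 and -4.75 in control.

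Because neuron markers fell as well, the subunits were set against them. The 13 neuron markers changed by log2 values from -3.72 for Syt1, a calcium sensor of vesicle release, to -1.58 for Map2, a dendritic microtubule protein gene, beside -3.72 to -2.48 for the 5 falling subunits. In a fit with each library scaled to its summed reads of the 13 markers, 4 members were lower and Grin2c was higher in OGD. That fit called 92.9% of all genes tested, 3.83% lower and 89.1% higher. The change relative to the markers was -1.42 ± 0.26 for Grin2a (adjusted p = 6.99e-08), -1.13 ± 0.23 for Grin3a (1.64e-06) and -0.73 ± 0.21 for Grin2d (0.000505), by the same quasi-likelihood test. Grin1 had -0.43 ± 0.18 (adjusted p = 0.0167), a call lost without control replicate 1 (0.062), control replicate 2 (0.0649) or OGD replicate 2 (0.0693), where the change was still -0.40, -0.40 and -0.35. The call was also lost with each marker weighing the same (-0.25, adjusted p = 0.216). Grin2b had -0.18 ± 0.18 (95% interval -0.54 to 0.18, adjusted p = 0.339). With the 9 excitatory markers as scaling genes, Grin2a and Grin3a passed, while Grin1 had -0.10 (adjusted p = 0.653) and Grin2d -0.40 (adjusted p = 0.116), and Grin2b turned to 0.13 (adjusted p = 0.583). All genes share the error of the marker sum in these fits, so the p-values of different genes are not independent. The fit to the 13 markers also took the spread largely from a trend over all genes (median prior degrees of freedom infinite, against 6.58 in the main fit). Its p-values and intervals therefore make little allowance for the few libraries per group and may be too small.

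Grin2c rose by 3.64 ± 0.20 relative to the neuron markers. It moved beside the astrocyte markers, whose summed level was 5970 to 6430 FPKM in OGD and 1880 to 2020 FPKM in control. Among them the gap junction gene Gja1 rose by 2.03 ± 0.07, the sodium pump subunit gene Atp1b2 by 1.48 ± 0.07 and Gfap by 1.89 ± 0.09. In a fit chosen after seeing the data, with libraries scaled to the summed reads of the 10 astrocyte markers, Grin2c changed by -0.34 ± 0.20 in OGD against control (95% interval -0.78 to 0.11, adjusted p = 0.131). With each of the 10 weighing the same it changed by -0.05 ± 0.20 (95% interval -0.49 to 0.40, adjusted p = 0.839). The scaling genes rose by a median log2 of 1.35, so any gene that rose about as much comes out little changed. These fits cannot show which cells held Grin2c. Other non-neuronal markers rose too: 7 of 8 of progenitors, all 7 tested of microglia, 6 of 10 of the oligodendrocyte lineage (where 3 fell) and 5 of 7 tested of vessels and fibroblasts. Of all tested genes 36.3% were called higher. The part of any of these cell types, astrocytes among them, in the rise of Grin2c was not tested.

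**Figure D3:**
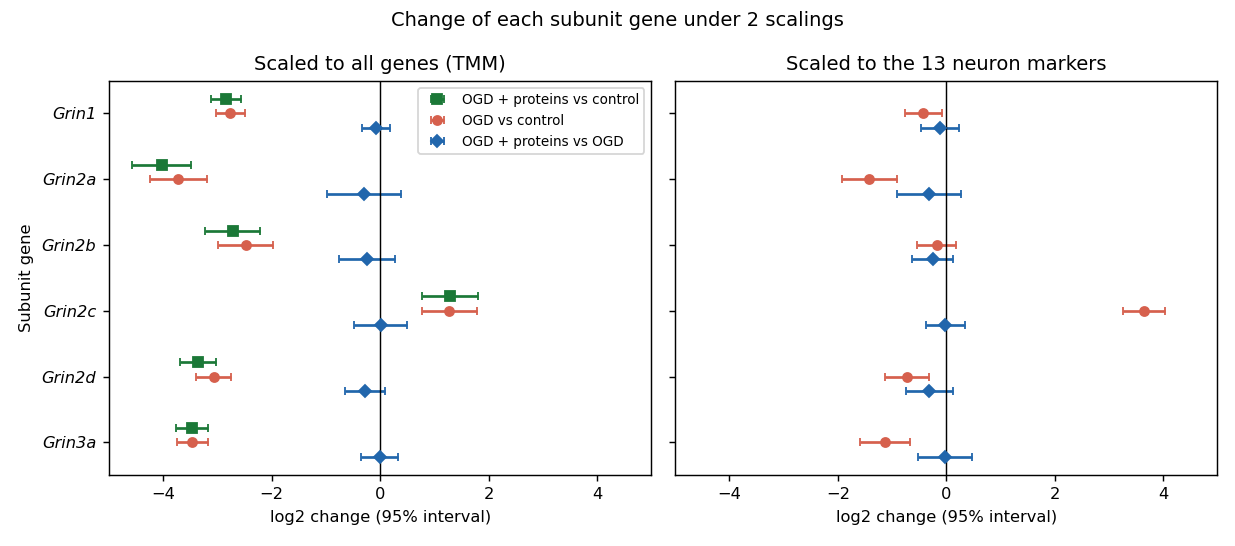
Log2 change of each subunit gene with its 95% interval, scaled to all genes by TMM (left) and to the 13 neuron markers (right). On the left 5 genes lie between -4.02 and -2.48 against control and Grin2c at 1.28 and 1.29, with changes by the added proteins between -0.30 and 0.01; on the right Grin2c lies at 3.64 and the others between -1.42 and -0.18 for OGD against control.

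Wnt3a plus Rspondin 1 under OGD were set against OGD alone to ask which genes the proteins regulate. None of the 6 members passed, where 27 of 13693 genes did (0.197%; 0.175% higher and 0.0219% lower), and none had an unadjusted p under 0.05, where 784 genes did. DESeq2 called 99 genes and no member. The count of 27 was 49 without OGD replicate 1, 13 without OGD replicate 2, 12 and 17 without replicates 2 and 3 of the group given the proteins, and no member passed in any of these fits.

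With the proteins, Grin1 had 10.9, 11.75 and 14.21 FPKM, against 13.66, 10.66 and 14.21 FPKM in OGD alone. Its log2 change was -0.08 with a 95% interval of -0.34 to 0.18, and adjusted p = 0.976 by edgeR. Grin2c had 11.73, 7.51 and 8.42 FPKM with the proteins and 11.98, 7.79 and 7.34 FPKM in OGD alone, a change of 0.01 (-0.48 to 0.50). In each group 1 library lay above the other 2, and the replicate numbers were not taken as pairing.

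Grin2b had 2.44, 2.54 and 4.08 FPKM with the proteins, against 3.11, 2.62 and 4.83 FPKM in OGD alone, a change of -0.24 (-0.76 to 0.28). Grin2d had 1.08, 1.00 and 1.16 FPKM with the proteins and 1.58, 1.15 and 1.36 FPKM without, a change of -0.28 (-0.64 to 0.09) and the smallest unadjusted p of the 6, at 0.124 by edgeR. Grin2a changed by -0.30 (-0.98 to 0.38) and Grin3a by -0.01 (-0.35 to 0.33). Libraries of the 2 groups overlapped for all 6 in depth-scaled log2 counts, as they did for all but 9.57% of the genes tested (4.73% higher, 4.85% lower). Each interval is centred on its change, so a longer reach downwards only repeats the sign of the change. The lower bounds were -0.98 for Grin2a, -0.76 for Grin2b and -0.64 for Grin2d.

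The share of Grin2c among the Grin2 genes was 67.3% ± 8.20 with the proteins and 62.8% ± 9.57 in OGD alone (SD, n = 3; exact permutation p = 0.6). For Grin2d the share was 6.98%, 8.87% and 8.19% with the proteins and 9.33%, 9.66% and 9.67% in OGD alone, 3 values below the other 3 (exact permutation p = 0.1, the smallest possible). The ratio of Grin2d to Grin1 overlapped between these groups (exact permutation p = 0.2). Replicate 1 with the proteins was where Grin2d's FPKM was most out of proportion to its counts (9.8%), but its share was also the lowest by reads. By reads, however, the groups overlapped, as the share in replicate 2 with the proteins lay above that in OGD replicate 2. Those libraries had 86 and 113 reads of Grin2d, beside 597 and 810 of Grin2c, 227 and 307 of Grin2b, and 17 and 33 of Grin2a. The Grin2d share was therefore separate in FPKM only. Relative to the neuron markers, changes by the proteins ran from -0.32 for Grin2a to -0.02 for Grin2c, with every adjusted p at 1, and that fit called 0.212% of all genes, 0.168% higher and 0.0438% lower.

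Set against untreated control, OGD with the proteins showed the same directions as OGD alone; both comparisons use the same control libraries. Of the 6 members, 5 were lower and Grin2c was higher, where 72.6% of tested genes were called, 36% lower and 36.6% higher. None of the 6 overlapped between these groups, nor did 78.7% of tested genes (39.8% higher, 38.9% lower). The log2 changes were -2.84 ± 0.12 for Grin1, -4.02 ± 0.25 for Grin2a, -2.72 ± 0.23 for Grin2b, -3.35 ± 0.15 for Grin2d, -3.47 ± 0.13 for Grin3a and 1.29 ± 0.23 for Grin2c. By edgeR the adjusted p of the 6 ran from 5.06e-10 to 0.000401. The log2 ratio of Grin2a to Grin2b was -3.47, -3.47 and -3.03 with the proteins, against -1.93, -2.05 and -1.86 in control.

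Genes that act on or with the receptor were then counted for OGD against control, where 36.8% of all tested genes were called lower and 36.3% higher. Of 16 genes that anchor or carry the receptor, 14 fell and 2 rose (median log2 change -2.43, against 0.02 over all tested genes). The synaptic scaffold genes Dlg4 and Dlg3, whose products bind the tails of GluN2 subunits, fell by 1.89 ± 0.09 and 1.79 ± 0.08, and Apba1, an adaptor in vesicle transport of the receptor, fell by 2.52 ± 0.10. The 2 that rose were the scaffold gene Dlg1 (0.44 ± 0.11) and Kif17, a dendritic kinesin that carries GluN2B in mouse (0.52 ± 0.15). Of 10 kinase and phosphatase genes, 8 fell and 1 rose (median -1.48), against 36.8% of all tested genes lower and 36.3% higher. Ptpn5, a phosphatase that removes GluN2B from the surface, changed by -3.18 ± 0.12, the calcium-activated kinase gene Ptk2b by -3.46 ± 0.15 and the protein kinase C gene Prkcb by -3.20 ± 0.14, while Fyn, a kinase that phosphorylates GluN2 subunits, rose by 0.52 ± 0.06. The casein kinase gene Csnk2a1 did not pass (-0.12, adjusted p = 0.143).

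Of 7 measured genes of signalling and injury downstream of the receptor, 6 fell and 1 rose (median -2.47). Of all tested genes 36.8% were called lower and 36.3% higher. Rasgrf1, a Ras activator that binds GluN2B, changed by -2.86 ± 0.09 and the oxidant-gated channel gene Trpm2 by -3.36 ± 0.17. The exception was Capn2, a calcium-dependent protease, which rose by 0.42 ± 0.07. Genes of co-agonist supply moved both ways, 3 higher and 3 lower of 6 tested (median -0.13). Srr, which makes D-serine, fell by 1.14 ± 0.12 and the neutral amino acid transporter gene Slc1a4 by 0.69 ± 0.10, while the glycine transporter gene Slc6a9 rose by 0.49 ± 0.07. The part that the fall of neuron markers (median -2.44) and the rise of astrocyte markers (median 1.35) had in these lists was not tested.

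Among 16 identifiers of transcriptional regulators with known or proposed roles at these genes, 8 fell and 4 rose (median -0.28). With 73.1% of all tested genes called, and a similar share here, the count says nothing particular about the list. The cortical neuron factor gene Tbr1 fell by 2.31 ± 0.14, its partner gene Cask by 1.10 ± 0.11 and the histone deacetylase gene Hdac2 by 1.03 ± 0.08. Those that rose were Rest, a repressor of neuronal genes (0.74 ± 0.10, 4.98 ± 0.214 FPKM in OGD and 2.71 ± 0.205 FPKM in control), the histone deacetylase gene Hdac1 (0.73 ± 0.08), the corepressor gene Sin3a (0.22 ± 0.07) and the GC box factor gene Sp1 (0.69 ± 0.10). Products of Hdac1, Hdac2 and Sin3a act with REST, and so do those of Rcor1 and Rcor2, named here after their values were seen. Rcor2 fell (-0.60 ± 0.23, adjusted p = 0.0287 by edgeR), and the 2 identifiers of Rcor1 had -0.40 (adjusted p = 0.00512) and -0.31, the second short of the threshold, so genes of these cofactors moved both ways. Astrocyte markers rose by a median of 1.35 in the same libraries, and their part in the change of Rest was not tested.

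AMPA and kainate receptor genes, the other ionotropic glutamate receptors, had a median change of -1.12, against -2.92 for the 6 NMDA receptor genes; this difference was not tested. Of the 9, 8 fell and 1 rose, where 36.8% of all tested genes were called lower and 36.3% higher. Gria4 and Gria1 fell by 1.68 ± 0.15 and 1.60 ± 0.15 and Grik1 by 3.04 ± 0.27, while Grik4 rose by 0.26 ± 0.09. In the comparison of the proteins with OGD alone, no gene of these lists of receptor partners, regulators or AMPA and kainate subunits passed. Of the cell type markers only Gja1 did, at 429 ± 13.9 FPKM with the proteins and 326 ± 7.44 FPKM in OGD alone (log2 change 0.38 ± 0.06, adjusted p = 0.0404 by edgeR).

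**Figure D4:**
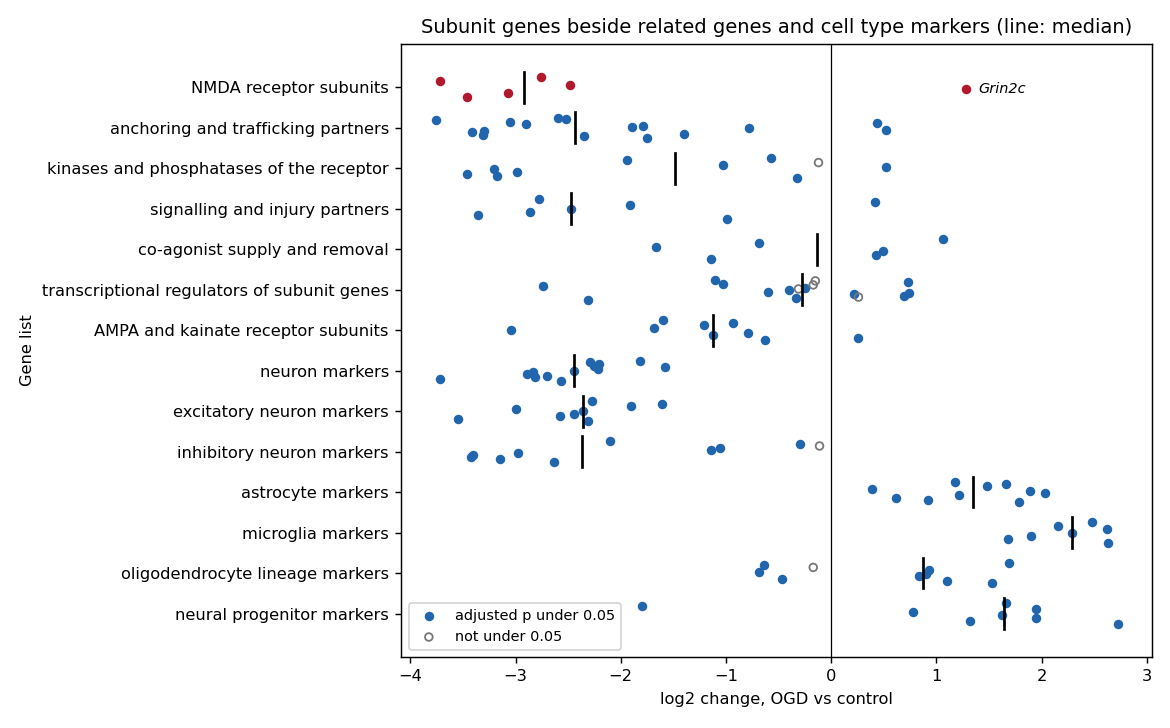
Log2 change in OGD against control for each tested gene of a list (filled where the adjusted p was under 0.05), with the median as a line. The NMDA receptor subunits lie at -3.72 to -2.48 except Grin2c at 1.28, which lies within the range of the astrocyte markers (0.39 to 2.03) and also between the lowest and highest of the progenitor (-1.80 to 2.73) and oligodendrocyte lineage markers (-0.69 to 1.69).

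Likeness of pattern was measured as the root mean square difference of centred log2 CPM (depth-scaled counts) over the 9 libraries. Closest to Grin1 were Vwa5b2 (0.0648) and Prkar1b, a neuronal regulatory subunit of protein kinase A (0.0664). Grin2a was closest to Gdf10, a growth factor gene (0.0939), and the metabotropic glutamate receptor gene Grm7 (0.161). Grin2b was closest to the lipid flippase gene Atp8a2 (0.0956) and Xkr4 (0.0995), Grin2d to the serotonin receptor gene Htr1a (0.0863) and Phf24 (0.13), and Grin3a to the cholesterol transfer gene Stard4 (0.0941) and the neuronal exchange factor gene Ngef (0.114). Closest to Grin2c were Notch1, a receptor of neural progenitors and glia (0.123, 42.0 FPKM in OGD and 17.3 FPKM in control), and the Wnt receptor gene Fzd2 (0.133, 91.8 FPKM in OGD and 33.4 FPKM in control). Among the members the closest pair was Grin1 with Grin2b (0.215), while Grin2c differed from each of the others by 1.89 to 2.47.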

How the data were processed

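RNA was sequenced from 9 libraries (TruSeq kit), 3 per group. The deposited count columns hold raw whole reads for each gene, and the deposited FPKM columns are scaled to length and depth, per the file headers. Each log2 fold change, p-value and FDR in the tables is the authors' own, from an unnamed test. Bowtie 0.12.2 and mouse builds mm8 and mm9 appear in the submitters' processing notes, while samples and identifiers are rat, so aligner, build and counter are not given in the sources used here.

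Columns were matched to samples by title; the tables write WR where titles have RW. Counts were fitted with edgeR 4.0.16 (R 4.3.3): filterByExpr (minimum count 10, total 15), TMM (0.943 to 1.033), 1 robust quasi-likelihood fit of 3 group means on 9 libraries with 6 residual degrees of freedom, Benjamini-Hochberg over 13693 genes, threshold 0.05. Standard errors and 95% intervals come from the F statistic. In the marker fits the summed marker reads replaced the library size. In simulated data for the proteins against OGD alone, 49.3% of changes by a log2 of 0.5 were called, and 90.9% of those by 1. For OGD against control these were 43.3% and 95.5%. The simulation changed few genes, whereas 73.1% were called in the real comparison of OGD with control. DESeq2 1.42.0, RLE factors, library totals, no filter, 6 libraries, a replicate block and leaving out each library were alternatives. Ratios of FPKM used no pseudocount. Likeness used genes with a mean of at least 1 FPKM and log2 CPM with a prior count of 2. Per gene list, up to 3 genes with the smallest adjusted p, any that passed against most of the list and any that passed with the proteins are named, except 1 gene of the signalling list that is not reported here. Most marker lists are given by counts. Members, lists and tests were chosen with earlier results of these data known. A library with 0 reads of a gene could hold up to 3 counts, 0.12 to 0.21 CPM, counting error only.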

Additional observations from a re-analysis of the deposited data

How the results depend on the processing

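For OGD against control and for OGD with Wnt3a plus Rspondin 1 against control, the 6 members kept direction and call in all 12 alternatives, 72 values per comparison, with a largest adjusted p of 0.00221 and 0.00202. For the proteins against OGD alone, no member passed in any of the 12 (smallest adjusted p = 0.538). The number of genes called there was 65 with the replicate block, 99 with DESeq2, 15 with only the 6 libraries compared, and 12 to 49 with 1 library left out. Relative to neuron markers it was 53 with the replicate block and 10 to 58 with 1 library left out, alternatives chosen after seeing the data, and no member passed. Relative to neuron markers, OGD against control had 2 members lower instead of 4 with excitatory markers as scaling genes, and 3 to 4 with 1 library left out. Scaled to astrocyte markers, chosen after seeing the data, Grin2c changed by -0.34 or -0.05 in place of 1.28, because the scaling genes themselves rose. A pseudocount of 0.1 FPKM lifts the low Grin2a values and made the changes of its log2 ratios smaller. For Grin2a to Grin2b, OGD with the proteins against control had -1.01 in place of -1.38. OGD alone against control had -0.97 in place of -1.27 for that ratio, and -0.7 in place of -1.02 for Grin2a to Grin1. Replicate numbers were not taken as pairing, since no label says they mark a shared batch and same-numbered deviations from group means correlated at -0.0688 to 0.273, not all above 0.1. The best match carried the same number in 11 of 18 cases, a hint from the data and not the design. The block changed no member's call, though the SE of Grin2c in OGD against control went from 0.23 to 0.12 with it. Low counts of Grin2a (16 to 36 reads after OGD) and 3 libraries per group limit the smaller changes.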
